A study of Mus musculus with 5 samples.

Results

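A group of 8 genes for the surface receptors that hold and guide haematopoietic stem cells (HSCs) in the bone marrow were followed by name: Cxcr4, Cd47, Cd44, Itga4, Itga6, Itgb1, Itgb2 and Selplg. All 8 were found among the 11643 genes of the table, and all 8 were among the 10570 tested, those whose mean reached 1 FPKM (a fragment count scaled by transcript length and by the size of the library). The HSCs came from the bone marrow of C57BL/6 mice and were sorted as Lin-cKit+Sca1+ CD150+CD48- cells. The mice labelled Tle1/3/4-deficient (2 libraries) carried floxed Tle1, Tle3 and Tle4 with Vav-Cre, which acts in every blood lineage and not in HSCs alone. The other 3 libraries are described as control, under names that begin with VavC. Whether those mice carried floxed alleles or Vav-Cre is not stated beyond that. Age is not given, and neither is whether each library stands for its own mouse, so the p-values may reflect technical spread alone.

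Adhesion receptors together with a chemokine receptor keep HSCs in their niche. CXCR4 binds the chemokine CXCL12 made by marrow stroma, and its signal switches integrins, which are paired alpha and beta subunits, to the binding state. Alpha4 beta1 (VLA-4, from Itga4 and Itgb1) binds VCAM1 and fibronectin, alpha6 beta1 binds laminin, and beta2 integrins (from Itgb2) bind ICAMs. CD44 binds hyaluronan, PSGL-1 (from Selplg) is the main selectin ligand, and CD47 is the signal that restrains engulfment by macrophages through SIRPα. TLE proteins are co-repressors without DNA-binding domains of their own, which reach promoters through factors such as RUNX and TCF/LEF.

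Promoter windows of 300 bases, 250 before and 50 after the annotated start, were held by the RefSeq table (GRCm38.p6) for 5 of the 8 genes, in 6 windows. The 3 shown belong to the receptor with the highest expression (Cd47, chr16:49855404-49855703, plus strand), to the one with the widest spread among the controls (Itga4, chr2:79255176-79255475, plus strand) and to the one with the lowest expression (Cxcr4, chr1:128592250-128592549, minus strand). Capitals mark a match to a searched motif.
Cd47: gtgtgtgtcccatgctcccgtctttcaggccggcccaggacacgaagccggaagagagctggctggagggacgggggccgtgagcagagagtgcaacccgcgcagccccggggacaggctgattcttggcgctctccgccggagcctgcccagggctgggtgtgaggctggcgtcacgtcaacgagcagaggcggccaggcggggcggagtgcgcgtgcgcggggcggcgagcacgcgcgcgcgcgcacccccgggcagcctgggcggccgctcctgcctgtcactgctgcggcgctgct
Itga4: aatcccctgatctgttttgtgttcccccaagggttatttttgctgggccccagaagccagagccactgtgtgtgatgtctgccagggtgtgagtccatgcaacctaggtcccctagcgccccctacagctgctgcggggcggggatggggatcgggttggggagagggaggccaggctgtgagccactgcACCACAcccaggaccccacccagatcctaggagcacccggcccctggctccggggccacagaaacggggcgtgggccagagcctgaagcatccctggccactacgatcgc
Cxcr4: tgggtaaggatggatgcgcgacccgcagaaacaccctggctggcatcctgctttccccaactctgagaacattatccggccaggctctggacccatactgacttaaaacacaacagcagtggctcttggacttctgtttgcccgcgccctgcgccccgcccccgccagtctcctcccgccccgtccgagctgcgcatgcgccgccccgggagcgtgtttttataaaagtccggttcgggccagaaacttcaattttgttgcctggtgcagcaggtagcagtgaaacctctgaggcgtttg
The Cd47 window held 35 CpG dinucleotides and the Cxcr4 window 20, against a median of 7 over all windows, and the Itga4 window held 10. Motifs of factor families that include TLE partners were searched on both strands: TGTGGT (RUNX), CTTTGA (TCF/LEF) and CACGTG (the E-box of HES and MYC proteins, its own reverse complement), none of which overlaps another here. The RUNX letters stood in 1 of the 6 windows, that of Itga4, as the reverse complement beginning 60 bases before the start. Over all 32851 windows 16.8% held them. The TCF/LEF letters stood in 0 of the 6 windows, against 16.0% of all, and the E-box in 0 of 6, against 7.15% of all. These matches describe letters in the windows and no binding was measured.

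Some facts about the libraries touch the values that follow. Of the targeted genes, Tle3 was at 32.3 and 31.6 FPKM in the libraries labelled deficient, against 2.48, 4.97 and 5.61 FPKM in the controls, which goes against the label. Tle4 was at 0.353 and 0.203 FPKM in the libraries labelled deficient, against 5.67, 0.0129 and 5.29 FPKM in the controls, a lower mean with overlapping groups, and Tle1 at 2.84 and 4.37 FPKM against 1.83, 0.811 and 3.33 FPKM, also overlapping. A gene-level FPKM does not show whether the floxed exons are present, so each direction given for the libraries labelled deficient rests on the label alone. The sort gene Kit was at 102 and 101.6 FPKM in the libraries labelled deficient, against 165, 185 and 149 FPKM in the controls, below every control (limma, adjusted p = 0.515). Slamf1, which encodes CD150, was at 14.9 FPKM or more in every library. Cd48, whose product the sort gated out, was at 7.19 and 23.4 FPKM in the libraries labelled deficient, against 3.22, 4.63 and 13.01 FPKM in the controls, highest in deficient-labelled replicate 2. Ly6a, which encodes Sca-1, varied widely, with 155 and 14.0 FPKM in the libraries labelled deficient, against 57.8 to 199 FPKM in the controls. The 14 neutrophil granulocyte markers summed to 11278 and 68776 FPKM in the libraries labelled deficient, against 576 to 3129 FPKM in the controls. S100a8 made up most of the sum in the libraries labelled deficient, at 7679 and 37600 FPKM. None of the 14 was listed at 0 in any library, but some were near it, such as Ctsg at 0.294 FPKM in deficient-labelled replicate 1. In such sorted bulk RNA, fewer cells of a type and less RNA per cell cannot be told apart.

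None of the 8 receptor genes passed an adjusted p of 0.05 in the comparison of the libraries labelled deficient with the controls (limma, Benjamini-Hochberg over 10570 genes). Of all tested genes, 0.00946% passed in each direction. At an unadjusted p under 0.05, 1 of the 8 was higher and 0 lower, against 3.26% higher and 5.18% lower of all genes. Both libraries labelled deficient lay above every control for 2 of the 8 (Itgb2 and Itga6) and below every control for 1 (Cd47), against 10.2% and 15.9% of all genes, and nothing is read from such counts over 8 genes. The median log2 fold change of the 8 was 0.32, beside -0.10 for all tested genes. The single genes differed widely in level, in spread and in the library that stood out.

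**Figure D1:**
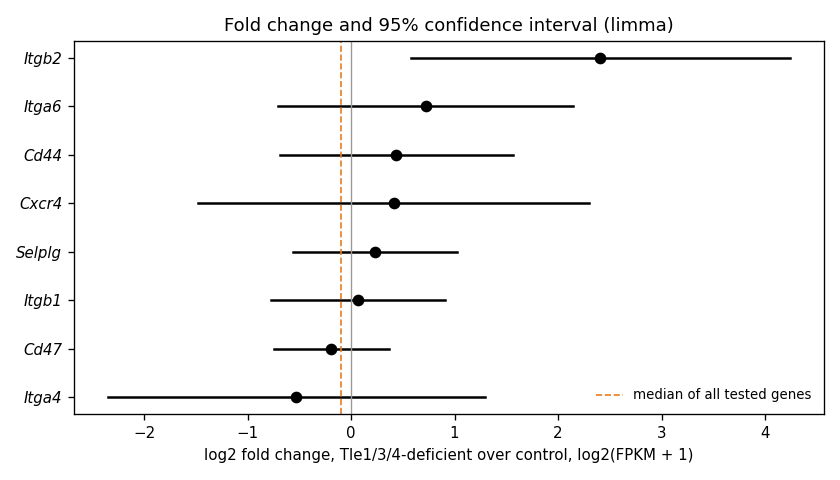
Log2 fold change of the 8 receptor genes (deficient-labelled over control; points) with 95% confidence intervals from limma, not adjusted for the number of genes (lines). The Itgb2 interval of 0.58 to 4.24 lies above 0, the other 7 include 0, and the Cd47 interval is the narrowest.

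**Figure D2:**
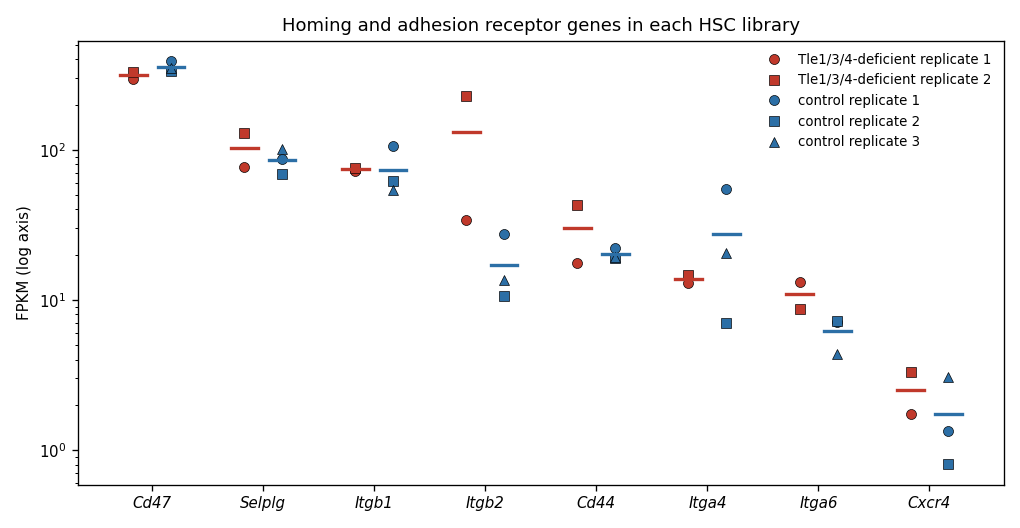
FPKM (log axis) of the 8 receptor genes, ordered by mean level, in the 2 libraries labelled Tle1/3/4-deficient (red, left) and 3 control libraries (blue, right); bars are group means. Cd47 lies within a narrow band of 296 to 391 FPKM, Itgb2 stands out in deficient-labelled replicate 2 at 227 FPKM, and Itga4 is spread over 7.05 to 54.4 FPKM among the controls.

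In level per transcript length, Cd47 was first and Cxcr4 last of the 8 in all 5 libraries. Cd47 ranked between 214 and 325 of the 10570 genes in each library, and Cxcr4 between 8583 and 9380. Selplg and Itgb1 followed Cd47, with Selplg above Itgb1 in 4 of 5 libraries. Itgb2 changed place most, since it lay above Itgb1 in deficient-labelled replicate 2 and below it in the other 4 libraries. The neighbours Cd44 and Itga4 kept their order in 3 of 5 libraries, as did Itga4 and Itga6, so the order of these pairs is within their spread.

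Cxcr4, the receptor for CXCL12, was at 1.74 and 3.29 FPKM in the libraries labelled deficient, against 1.34, 0.803 and 3.06 FPKM in the controls. The groups overlapped, with control replicate 3 almost as high as deficient-labelled replicate 2. The log2 fold change was 0.41 (SE 0.81, 95% confidence interval -1.48 to 2.30, limma, adjusted p = 0.916), an interval that spans lower and higher levels. Leaving out single libraries moved it between 0.09 (without deficient-labelled replicate 2) and 0.74 (without control replicate 3). At this level the log2(FPKM + 1) scale understates fold changes. Its ligand Cxcl12, a stromal gene, was at 2.30 and 27.0 FPKM in the libraries labelled deficient, against 0, 0.0747 and 0.672 FPKM in the controls (adjusted p = 0.505), and the groups did not overlap. Among 4 stromal markers in the table, Cxcl12 included, the sum was 24.9 and 39.9 FPKM in the libraries labelled deficient, against 4.66 to 6.89 FPKM in the controls, and the other 3 markers differed among themselves. Pdgfrb, a receptor of mural and stromal cells, was at 20.0 and 8.33 FPKM in the libraries labelled deficient, against 3.16, 1.42 and 3.02 FPKM in the controls (adjusted p = 0.506), and its groups did not overlap. The groups overlapped for the collagen genes Col1a1, at 0 and 1.45 FPKM against 0, 0 and 0.432 FPKM, and Col1a2, at 2.63 and 3.07 FPKM against 3.73, 3.91 and 0.533 FPKM. The part of stromal RNA in the Cxcl12 values was not tested.

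Genes that carry the CXCR4 signal were described from a list of 32, of which 27 were tested and 0 passed (limma, adjusted p), with 1 higher and 3 lower at an unadjusted p under 0.05, beside 3.26% and 5.18% of all genes, and a median log2 fold change of 0.11. Its most highly expressed members were the small GTPases Cdc42 and Rac1, which drive actin remodelling. Cdc42 averaged 237 ± 19.6 FPKM in the libraries labelled deficient, against 192 ± 20.2 FPKM in the controls (SD, n = 2 and 3, adjusted p = 0.744), and Rac1 218 ± 21.0 and 179 ± 31.9 FPKM (adjusted p = 0.777). The 3 genes below an unadjusted 0.05 with lower values, named after their values were seen, were Rgs1, which limits chemokine signalling, Dock2, an activator of RAC, and Pak1, a RAC effector kinase. Pak1 was at 9.91 and 16.4 FPKM in the libraries labelled deficient, against 42.7, 42.8 and 27.1 FPKM in the controls (log2 fold change -1.45, SE 0.44, adjusted p = 0.439). Rgs1 was at 42.6 and 18.8 FPKM against 81.2, 50.4 and 72.1 FPKM (adjusted p = 0.51), and Dock2 at 28.7 and 39.3 FPKM against 66.6, 57.5 and 55.1 FPKM (adjusted p = 0.559). In all 3, picked by their unadjusted p, the groups did not overlap, and none passed over all genes. Of the 27 tested, both libraries labelled deficient were above every control for 5 and below for 5. The shares of all genes were 10.2% and 15.9%.

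Itgb1, the beta subunit shared by VLA-4 and the laminin receptor, was at 72.7 and 75.4 FPKM in the libraries labelled deficient, against 105, 62.2 and 53.5 FPKM in the controls. Both deficient-labelled values lay inside the range of the controls, of which replicate 1 was the highest. The group means were 74.0 ± 1.88 and 73.7 ± 27.8 FPKM (SD, n = 2 and 3), with a log2 fold change of 0.07 (SE 0.36, 95% interval -0.78 to 0.91, limma, adjusted p = 0.969). The sign of so small a value turned with single control libraries, as given with the other settings.

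Itga4, the alpha4 subunit, was at 13.01 and 14.6 FPKM in the libraries labelled deficient, against 54.4, 7.05 and 20.6 FPKM in the controls. The controls spread over 7.72-fold and enclosed both libraries labelled deficient. The mean was 13.8 ± 1.10 FPKM in the libraries labelled deficient, against 27.4 ± 24.4 FPKM in the controls (log2 fold change -0.53, SE 0.78, 95% interval -2.35 to 1.29, limma, adjusted p = 0.878). Control replicate 1 decided the lower mean, since without it the log2 fold change was 0.16 (adjusted p = 0.96). In a later annotation the Itga4 locus overlaps Cerkl on the other strand, and whether fragments were counted by strand is not given in the sources used here. The 3 tested genes nearest to Itga4 in pattern over the 5 libraries were Osbp, Epb4.1l2 and Zfp54, with a root mean square difference of centred log2(FPKM + 1) of 0.094, 0.116 and 0.185. Picked for this pattern, all 3 had their highest value in control replicate 1 and their lowest in control replicate 2, as in Itga4.

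Itga6, the alpha6 subunit of laminin receptors and a marker of early progenitors, was at 13.1 and 8.63 FPKM in the libraries labelled deficient, against 7.08, 7.18 and 4.37 FPKM in the controls. Each library labelled deficient exceeded every control, the lower of them by little. The log2 fold change was 0.72 (SE 0.61, 95% interval -0.71 to 2.14), which did not pass (limma, adjusted p = 0.757). Platelets also carry alpha6, and the 12 megakaryocyte and platelet markers in the table summed to 8229 and 3707 FPKM in the libraries labelled deficient, against 767 to 1512 FPKM in the controls, with 1 marker (Tubb1) listed at 0 in control replicate 2 and none in the other libraries. Deficient-labelled replicate 1 was the highest library for both Itga6 and this sum, and control replicate 3 the lowest for both. The part of that sum in the Itga6 values was not tested. Several non-coding or pseudogene loci overlap Itga6 in the later annotation, none of which is a row of the table.

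The level of each subunit relative to Itgb1 within a library was compared by an exact permutation test, two-sided, over the 10 arrangements of 5 libraries, whose smallest possible p is 0.2. The log2 ratio of Itga4 to Itgb1 averaged -2.35 ± 0.07 in the libraries labelled deficient, against -1.75 ± 1.08 in the controls (exact p = 0.6), and that of Itga6 to Itgb1 -2.69 ± 0.43 and -3.34 ± 0.39 (exact p = 0.4). The log2 ratio of Itgb2 to Itgb1 was -1.07 and 1.58 in the libraries labelled deficient, against -1.92, -2.44 and -1.91 in the controls (exact p = 0.2). Adjusted over these 3 ratios every p was 0.6, and the design could not reach 0.05. Among 8 alpha subunits that can pair with beta1 (chosen after the values were seen), the summed level was 52.8 and 63.3 FPKM in the libraries labelled deficient, against 98.6, 49.75 and 47.9 FPKM in the controls. Itgb1 stood at 1.38 and 1.19 times that sum in the libraries labelled deficient, against 1.07, 1.25 and 1.12 times in the controls. The sum and Itgb1 were both highest in control replicate 1, and their ratio varied less than Itga4 itself.

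Itgb2, the beta2 subunit of the leukocyte integrins LFA-1 and Mac-1, was at 34.2 and 227 FPKM in the libraries labelled deficient, against 27.2, 10.7 and 13.5 FPKM in the controls. The pair labelled deficient exceeded every control, replicate 1 narrowly and replicate 2 by far, at 13.2 times the control mean. The means were 131 ± 136 and 17.2 ± 8.86 FPKM (SD, n = 2 and 3). The log2 fold change of 2.41 (SE 0.78) had an unadjusted 95% interval of 0.58 to 4.24 and missed the threshold (limma, adjusted p = 0.484). Without deficient-labelled replicate 2 it was 1.06 (adjusted p = 0.704), and without replicate 1 it was 3.76 (adjusted p = 0.23), each resting on 1 deficient-labelled library that is assumed to vary like the controls.

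The alpha partners of beta2 stood out in the same library. Itgam, the alpha subunit of Mac-1 on neutrophils and monocytes, was at 2.72 and 56.2 FPKM in the libraries labelled deficient, against 0.0435, 3.20 and 2.23 FPKM in the controls (adjusted p = 0.621). Itgal, the alpha subunit of LFA-1, was at 1.81 and 12.3 FPKM against 0, 2.73 and 1.44 FPKM (adjusted p = 0.704). In deficient-labelled replicate 1 both partners lay within the range of the controls, although Itgb2 there was above it. Itgb2 exceeded the sum of Itgam and Itgal in every library, by 7.55 and 3.31 times in the libraries labelled deficient, against by 1.80 and 3.69 times in control replicates 2 and 3, while in control replicate 1 the partners summed to 0.0435 FPKM.

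The neutrophil marker sum, like Itgb2, was higher in both libraries labelled deficient than in any control. Among the controls the order of the sum was the opposite of that of Itgb2. Of these 14 markers, 10 had both libraries labelled deficient above every control, beside 10.2% of all genes. Within the controls, Itgb2 was highest in replicate 1, where the marker sum was lowest (576 FPKM), and lowest in replicate 2, where the sum was highest (3129 FPKM). Monocyte and macrophage markers summed to 794 and 3570 FPKM in the libraries labelled deficient, against 426 to 593 FPKM in the controls. Lyz2, which made up most of that sum, was at 646 and 2759 FPKM against 431, 409 and 508 FPKM. Of the 9 tested markers, 6 had both libraries labelled deficient above every control, beside 10.2% of all genes. The groups overlapped for others, such as Cd68, at 0.112 and 43.0 FPKM against 13.5, 0 and 11.6 FPKM. Cd14, which defines that lineage, stood at 5.98 and 8.10 FPKM in the libraries labelled deficient, against 0 in every control. Csf1r, which does so too, stood at 1.73 and 11.3 FPKM in the libraries labelled deficient, against at most 0.032 FPKM in the controls. The part of either cell type in the Itgb2 values was not tested. The tested genes nearest to Itgb2 in pattern were Plaur, Donson and Pik3r5, at root mean square differences of 0.382, 0.393 and 0.394 over the 5 libraries, and Plaur was at 14.6 and 110.0 FPKM in the libraries labelled deficient, against 20.3, 8.82 and 10.3 FPKM in the controls.

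**Figure D3:**
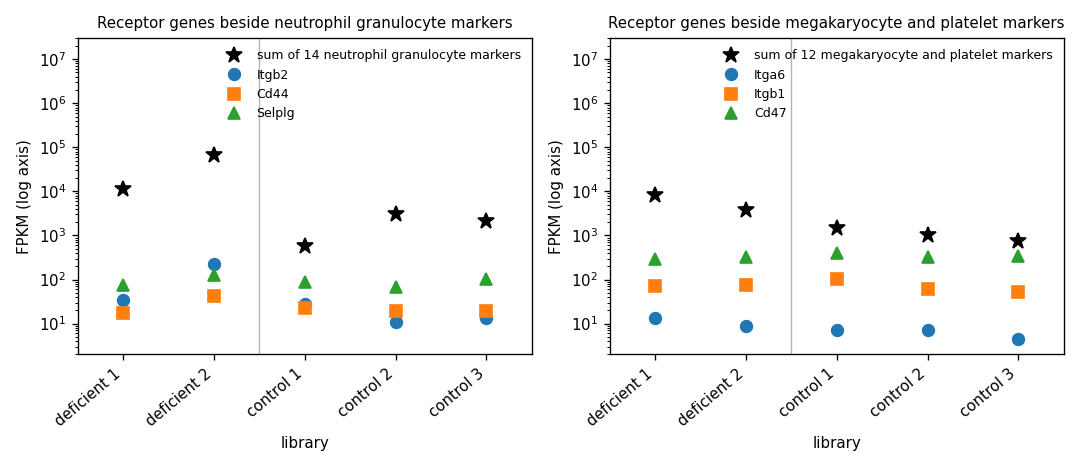
FPKM (log axis) by library, with the 2 libraries labelled deficient left of the line and the 3 controls right of it; stars are summed marker genes, and other symbols are receptor genes. Itgb2, Cd44 and Selplg all have their highest value in deficient-labelled replicate 2, where the neutrophil sum is 68776 FPKM. Itga6 and the platelet sum (8229 FPKM) are highest in deficient-labelled replicate 1. Itgb1 and Cd47, plotted in the same panel as the platelet sum, are highest in control replicate 1.

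**Figure D4:**
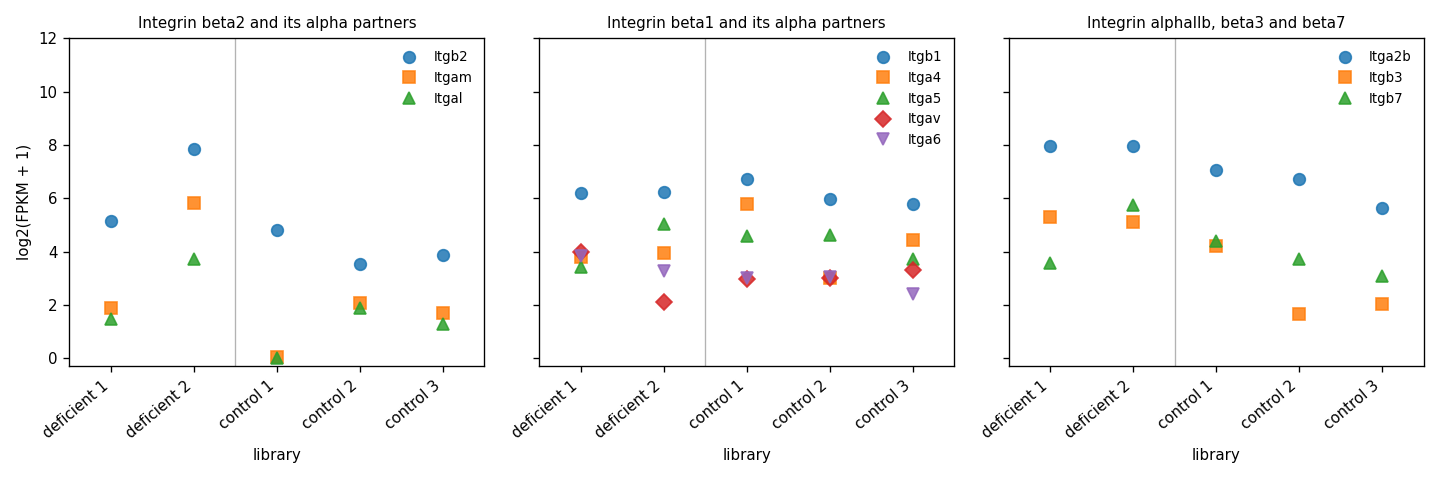
Level (log2(FPKM + 1)) of integrin subunits by library, with the 2 libraries labelled deficient left of the line in each panel. Itgb2 and Itgam peak in deficient-labelled replicate 2, Itga4 peaks in control replicate 1, and Itga2b and Itgb3 are higher in both libraries labelled deficient than in any control.

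Other integrin subunits were taken from lists of 16 alpha and 6 beta genes. Of the alpha genes 7 were tested and 0 passed (limma), with 1 higher at an unadjusted p under 0.05, and of the beta genes 4 were tested and 0 passed, again with 1 higher, beside 3.26% of all genes. The median log2 fold changes were -0.05 and 1.26. Itga2b (alphaIIb) was at 245 and 251 FPKM in the libraries labelled deficient, against 131, 105 and 48.9 FPKM in the controls (adjusted p = 0.439), and Itgb3, with which it forms the platelet fibrinogen receptor, at 38.4 and 33.5 FPKM against 17.7, 2.15 and 3.09 FPKM (adjusted p = 0.468). For both, the groups did not overlap and the spread was wide among the controls. Itga5, the fibronectin receptor subunit, was at 9.72 and 31.4 FPKM against 23.0, 23.7 and 12.3 FPKM (adjusted p = 0.976), and Itgb7, the other partner of alpha4, was at 10.9 and 52.3 FPKM against 20.3, 12.2 and 7.46 FPKM (adjusted p = 0.745). Itgb7, like Itgb2, was highest in deficient-labelled replicate 2.

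Intracellular proteins that activate integrins and link them to actin were described from a list of 29 genes. Of these 24 were tested and 0 passed (limma), 3 being higher and 0 lower at an unadjusted p under 0.05, beside 3.26% and 5.18% of all genes. Both libraries labelled deficient were above every control for 9 and below for 1 of the 24, against 10.2% and 15.9% of all genes, and the median log2 fold change was 0.16. Rap1b, a small GTPase that turns integrins on, was at 288 and 218 FPKM in the libraries labelled deficient, against 179, 166 and 84.5 FPKM in the controls (adjusted p = 0.59). The 3 genes, named after their values were seen, were Lims1 (PINCH1, a partner of ILK), Vcl (vinculin) and Zyx (zyxin). Lims1 was at 277 and 84.8 FPKM against 34.4, 42.1 and 34.5 FPKM (log2 fold change 2.03, adjusted p = 0.433), Vcl at 29.2 and 41.4 FPKM against 12.2, 17.2 and 9.53 FPKM (adjusted p = 0.496) and Zyx at 210 and 208 FPKM against 156, 114 and 138 FPKM (adjusted p = 0.577). Platelets are rich in these proteins, and their markers were higher in the same libraries, as given above; their part in these values was not tested. Fermt3, which encodes kindlin-3, the integrin activator of blood cells, was at 0 and 487 FPKM in the libraries labelled deficient, against 280, 359 and 0 FPKM in the controls. Such a 0 beside high values elsewhere can be a failed estimate, and no fold is given for it.

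Cd44, the hyaluronan receptor, was at 17.6 and 43.0 FPKM in the libraries labelled deficient, against 22.3, 19.1 and 19.2 FPKM in the controls. The 3 controls lay within 1.17-fold of each other, deficient-labelled replicate 1 was below all of them and replicate 2 was at 2.13 times their mean. The log2 fold change was 0.44 (SE 0.48, 95% interval -0.69 to 1.56, limma, adjusted p = 0.822), and without deficient-labelled replicate 2 it was -0.19 (adjusted p = 0.906). A gene-level FPKM does not separate the standard form of CD44 from its variant exons.

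Of 19 genes for CD44 partners, hyaluronan metabolism and linked matrix proteins, 12 were tested and 0 passed (limma), with 5 higher and 0 lower at an unadjusted p under 0.05, and the median log2 fold change was 0.65. Both libraries labelled deficient exceeded every control for 6 of the 12 and were below every control for 0, beside 10.2% and 15.9% of all genes, and the shares of all genes at an unadjusted p under 0.05 were 3.26% higher and 5.18% lower. The most abundant were Srgn, a proteoglycan core protein of granules, at 978 and 824 FPKM in the libraries labelled deficient, against 812, 797 and 786 FPKM in the controls (adjusted p = 0.869), and Msn (moesin), which ties CD44 to actin, at 88.3 and 147 FPKM against 132, 140 and 103 FPKM (adjusted p = 0.939). The 5 genes, named after their values were seen, were Mmp14, Mmp9, Timp3, Spp1 and Hmmr. Mmp14, a membrane protease that cleaves CD44, was at 43.3 and 36.3 FPKM against 0, 4.34 and 2.15 FPKM (adjusted p = 0.392), and Spp1 (osteopontin, a CD44 and integrin ligand) at 30.6 and 46.0 FPKM against 8.71, 7.49 and 5.05 FPKM (log2 fold change 2.28, adjusted p = 0.424). For both genes each library labelled deficient was above every control. Mmp9, a protease of neutrophil granules, was at 19.1 and 437 FPKM against 5.29, 4.77 and 3.97 FPKM (adjusted p = 0.439), and was thus far higher in the library with the highest neutrophil sum. Timp3, a protease inhibitor, and Hmmr, a hyaluronan-binding protein of the mitotic spindle, were at 32.9 and 30.3 FPKM against 5.71, 13.7 and 4.53 FPKM and at 25.0 and 28.8 FPKM against 7.64, 12.4 and 15.4 FPKM (adjusted p = 0.439 and 0.584).

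Selplg, whose product PSGL-1 tethers cells to P-selectin and E-selectin, was at 76.5 and 129 FPKM in the libraries labelled deficient, against 86.8, 68.8 and 102 FPKM in the controls. Deficient-labelled replicate 1 lay within the controls and replicate 2 above them. The log2 fold change of 0.23 (SE 0.34, 95% interval -0.56 to 1.02) did not pass (limma, adjusted p = 0.88), and without deficient-labelled replicate 2 it was -0.14 (adjusted p = 0.9). Of 17 genes for selectins and the enzymes that build their ligands, 15 were tested and 0 passed (limma), with 3 higher and 1 lower at an unadjusted p under 0.05, beside 3.26% and 5.18% of all genes, and a median log2 fold change of 0.30. The most abundant were Cd24a, a mucin-like ligand of P-selectin, at 117 and 249 FPKM in the libraries labelled deficient, against 88.4, 124 and 115 FPKM in the controls (adjusted p = 0.668), and Tpst2, a tyrosine sulfotransferase that modifies PSGL-1, at 211 and 107 FPKM against 132, 142 and 86.5 FPKM (adjusted p = 0.817). Neither separated the groups. Fut7, the fucosyltransferase needed for selectin ligands, was at 38.9 and 12.8 FPKM against 13.5, 23.8 and 18.2 FPKM (adjusted p = 0.913).

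Cd47 was at 296 and 330 FPKM in the libraries labelled deficient, against 391, 334 and 348 FPKM in the controls. Both libraries labelled deficient lay below every control, replicate 2 narrowly. The means were 313 ± 24.0 and 358 ± 29.9 FPKM (SD, n = 2 and 3), with a log2 fold change of -0.19 (SE 0.24, limma, adjusted p = 0.841), beside a median of -0.10 over all genes. The 95% interval of -0.75 to 0.36 was the narrowest of the 8. Its receptor Sirpa, an inhibitory receptor of myeloid cells, was at 3.75 and 38.6 FPKM in the libraries labelled deficient, against 15.5, 13.2 and 15.8 FPKM in the controls (adjusted p = 0.96), so the 2 libraries labelled deficient lay on either side of the controls. Of 11 genes linked to CD47, 7 were tested and 0 passed (limma), 0 also at an unadjusted p under 0.05, with a median log2 fold change of -0.07. The most abundant were Calr, the engulfment signal that CD47 counters, at 235 and 190 FPKM against 189, 154 and 187 FPKM (adjusted p = 0.797), and Ubqln1, a binding partner of CD47, at 25.4 and 37.2 FPKM against 53.9, 29.6 and 39.1 FPKM (adjusted p = 0.825).

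The remaining lists hold adhesion molecules that act beside these receptors. Of 24 immunoglobulin-family and junctional molecules 15 were tested and 0 passed (limma), with 2 higher and 0 lower at an unadjusted p under 0.05, beside 3.26% and 5.18% of all genes, and a median log2 fold change of -0.12. Bsg (CD147) was at 266 and 216 FPKM in the libraries labelled deficient, against 338, 317 and 344 FPKM in the controls (adjusted p = 0.64), and Icam2, a ligand of beta2 integrins, at 66.6 and 49.4 FPKM against 61.7, 110 and 85.7 FPKM (adjusted p = 0.704). Bsg was thus lower in both libraries labelled deficient than in any control, and Icam2 was not. Of 22 tetraspanins, which organise integrins in the membrane, 20 were tested and 0 passed (limma), with 2 higher and 0 lower by the same measure and a median of 0.11. Cd63 was at 215 and 391 FPKM in the libraries labelled deficient, against 503, 520 and 387 FPKM in the controls (adjusted p = 0.618), and Cd9 at 692 and 448 FPKM against 203, 172 and 135 FPKM (adjusted p = 0.345). Over all 10 lists, 144 of 204 genes were tested and 0 passed (limma), with 19 higher and 4 lower at an unadjusted p under 0.05, beside 3.26% and 5.18% of all genes. Both libraries labelled deficient were above every control for 33 of the 144 and below for 16, beside 10.2% and 15.9% of all genes. Which of these genes platelets and neutrophils also express was not tested over the lists.

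**Figure D5:**
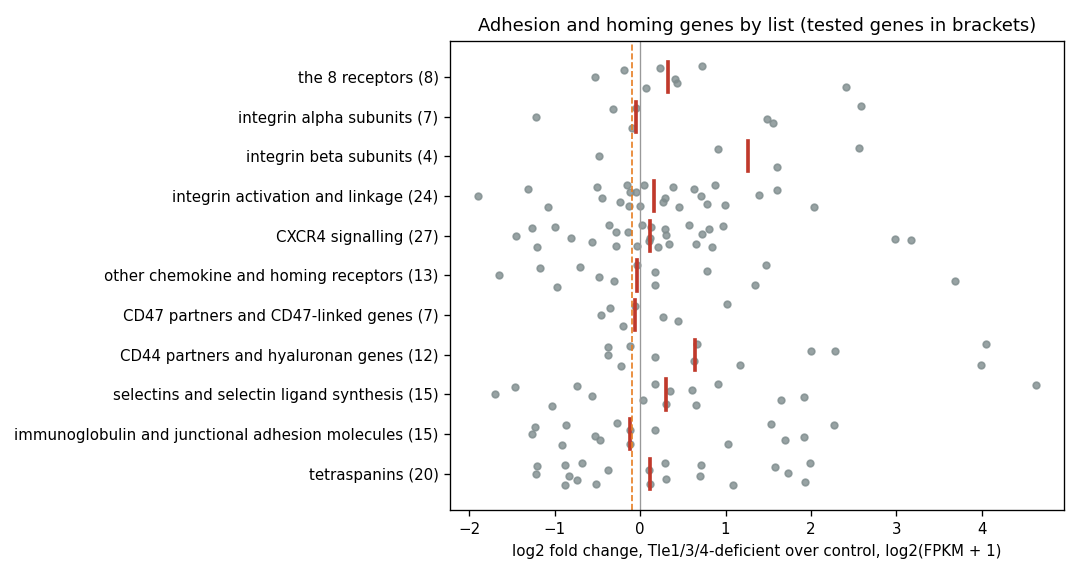
Log2 fold change (deficient-labelled over control, log2(FPKM + 1)) of each tested gene in the 10 lists and the 8 receptors; points are genes, spread vertically only for legibility, red bars are list medians, and the dashed line is the median of all tested genes (-0.10). The list medians run from -0.12 to 1.26 and single genes reach beyond 4 in the CD44 and selectin lists, none of them past an adjusted p of 0.05.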

How the data were processed

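RNA-seq of 5 libraries was deposited by the authors as FPKM, 1 value per gene symbol and library. TopHat, edgeR and build mm9 are listed, per the submitters' processing notes, without version or role. The annotation, any counting by strand and any filter: not given in the sources used here. A very abundant transcript lowers all other FPKM of its library. Columns summed to 599137 to 683822 FPKM, and 656 to 1438 genes per library were listed at 0, which can be failed estimates. None of the receptor genes was. Total depth is unknown, so no counting interval can be given. From steps of values under 0.3 FPKM, relative depth was 1.11 and 1.29 in deficient-labelled replicates 1 and 2 and 1.11 and 1.46 in control replicates 2 and 3, relative to control replicate 1. Only 12.3% to 34.0% of low genes stood at the commonest ratio (tolerance 0.5%), as few as 8 genes.

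Here, log2(FPKM + 1) of the 10570 genes whose mean reached 1 FPKM was fitted with limma 3.58.1 in R 4.3.3 (group as the only term, eBayes with trend, two-sided, Benjamini-Hochberg over all tested genes, threshold 0.05). Code was tested on simulated data. Group and replicate number came from the sample titles. Alternatives were other pseudocounts, filters, scalings and variance models, weighted arrays, a block for the replicate number, no on-off genes, another threshold and leaving out each library. The receptor genes, gene lists and tests were chosen with earlier results of these data known. Named are each receptor gene, the most abundant genes of each list, the listed integrin subunits, the sort and targeted genes, pattern neighbours of the 2 receptor genes with the largest spread, and others marked as named after their values were seen. Cxcl12, Sirpa and Fut7, and the marker genes given singly, were likewise added outside that rule after their values were seen. Lists are given by counts and medians without a set test. Other steps ran in Python 3.11.15 (pandas 2.3.3; matplotlib 3.10.9 for plots; scipy 1.17.1). Overlapping genes were looked up by symbol in GENCODE M21.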

Additional observations from a re-analysis of the deposited data

How the results depend on the processing

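None of the 8 receptor genes passed under any alternative tried, the lowest adjusted p being 0.23 (Itgb2 without deficient-labelled replicate 1), and 0 pathway genes passed in any. Cxcr4, Cd47, Itga6 and Itgb2 kept their direction under all alternatives that kept the gene (a mean of at least 5 FPKM dropped Cxcr4). Leaving out single libraries gave log2 fold changes of -0.19 to 1.06 for Cd44, -0.14 to 0.60 for Selplg, -1.23 to 0.16 for Itga4 and -0.13 to 0.35 for Itgb1, all with reversed values among them; the cause was not tested. No other setting except the replicate block reversed a receptor gene. The replicate number as a block gave -0.13 for Itgb1; since control replicate 3 is alone in its block, that fit compares the other 4 libraries. Deviations from the group means correlated at 0.035 and 0.007 for replicates 1 and 2. With 2 libraries labelled deficient, their deviations are exact opposites. These correlations therefore cannot show whether libraries of the same number were paired. Median-of-ratios scaling moved the median of all genes from -0.10 to 0.01 and no receptor gene changed direction. The 3 within-library ratios kept their direction in each of their 7 alternatives. Leaving out any single library turned the median of the integrin alpha list (-0.05) positive, at 0.43 to 1.02, and so did a mean of at least 5 FPKM (0.72). The filter on the mean was applied anew in each of these fits, so the genes behind a list median could differ. The integrin alpha median was also positive, though small, with median-of-ratios scaling (0.06), quantile normalization (0.026), array weights (0.088) and the replicate block (0.056). When single libraries were left out, the medians also took both signs for the tetraspanins (-0.11 to 0.575), the selectin list (-0.045 to 0.491), the CD47 list (-0.56 to 0.17) and the other chemokine and homing receptors (-0.43 to 0.01).

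Of all tested genes, 2 passed (1 higher, 1 lower). The count was 22 with the replicate block (20 higher, 2 lower), 5 with robust eBayes and at a threshold of 0.1, 4 with median-of-ratios scaling (3 higher, 1 lower) and without on-off genes, 1 without trend, and 0 with a pseudocount of 0.1 or 0.5, no filter or array weights. It was 0 to 5 when single libraries were left out. The cause was not tested. The depth is unknown, so what it limits cannot be given.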

Other observations

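Other receptors that steer HSC traffic were read from a list of 28 chemokine, sphingosine-1-phosphate, prostaglandin and related genes, of which 13 were tested and 0 passed (limma), with 1 higher and 0 lower at an unadjusted p under 0.05, beside 3.26% and 5.18% of all genes. The median log2 fold change was -0.04. Adgrg1 (GPR56), an adhesion G protein-coupled receptor of HSCs, was the most abundant, at 641 and 434 FPKM in the libraries labelled deficient, against 677, 661 and 617 FPKM in the controls (adjusted p = 0.764). Lgals9 (galectin-9) followed at 360.2 and 304 FPKM against 267, 375 and 252 FPKM (adjusted p = 0.896). Genes named after their values were seen included S1pr1, the receptor that guides cells out of the marrow into blood, at 7.96 and 3.97 FPKM in the libraries labelled deficient, against 21.1, 10.6 and 12.2 FPKM in the controls (adjusted p = 0.643). Both libraries labelled deficient were below every control for S1pr1. Cxcr2, the neutrophil chemokine receptor, was at 5.54 and 48.8 FPKM against 0.229, 0.435 and 0.578 FPKM (adjusted p = 0.433), and was the 1 gene below an unadjusted p of 0.05.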
